A study of Limonium bicolor with 5 samples.

Results

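The 6 genes described here are matches of Arabidopsis guard cell genes in Limonium bicolor, a salt-secreting plant. Their expression in guard cells of Limonium was not tested. They are the kinases HT1 and OST1, the potassium channels KAT1 and GORK, the anion channel SLAC1 and the transcription factor MYB60. They were chosen by the Arabidopsis locus paired with each Limonium gene, and all 6 had a row among the 18327 genes of the table. Poly(A) RNA came from first true leaves in tissue culture, at 5 stages that the labels call undifferentiated (stage A, about 5000 pooled leaves), salt gland differentiated (stage B, 4000), stomata differentiated (stage C, 2000), epidermis differentiated (stage D, 1000) and mature (stage E, 1000). The labels give tissue culture for every stage and name no treatment, genotype, salt level or culture batch. They call 2 lanes of each stage biological replicates, but the table has 1 value column per stage, with 5939374 reads behind stage A, 16556653 behind B, 14286009 behind C, 16367754 behind D and 12945184 behind E.

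Guard cells are paired epidermal cells that open and close the stomatal pore by changing their volume. In Arabidopsis, abscisic acid, the hormone of water shortage, binds PYR/PYL receptors, which stop clade A PP2C phosphatases from holding back OST1, and OST1 then phosphorylates the anion channel SLAC1. Anion loss depolarises the membrane, potassium leaves through the outward channel GORK, and the pore closes. Potassium enters through inward channels such as KAT1 when the pore opens. HT1 is a kinase that holds back closure in response to carbon dioxide, and MYB60 is a guard cell transcription factor linked to stomatal opening. All of these roles are known from Arabidopsis.

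The table names its genes by Arabidopsis locus and description. MYB60 (AT1G08810, row LB00623), GORK (AT5G37500, LB16059) and KAT1 (AT5G46240, LB16635) carried their own names in the description. HT1 (AT1G62400, LB03510) and OST1 (AT4G33950, LB13526) were described only as protein kinase superfamily proteins, and SLAC1 (AT1G12480, LB00932) as a C4-dicarboxylate and malic acid transport protein. Genome coordinates and sequences of the Limonium genes were not used here.

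Values are RPM, which account for library size but not for gene length. Rises and falls were therefore taken only within a gene, between stages. Where values of several genes are summed, given as part of a sum or set as a ratio, the sizes also depend on gene lengths. A gene was said to rise or fall when its log2(RPM + 1) in 2 stages lay 1 or more apart and the higher stage reached 5 RPM. Because the 2 lanes are not separated, no difference could be tested or set against replicates, and the spread between leaves or lanes is unknown. Folds are ratios of RPM with the exact 95% interval (Clopper-Pearson) of the reads behind them, and levels carry the exact 95% Poisson interval. These intervals cover counting error only, because 1 column per stage holds no spread between samples. They may be too narrow even for that, since PCR copies are not separate molecules.

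The 6 genes did not move together. By stage E, the mature leaf, OST1 and MYB60 had risen over stage A and GORK had fallen, while KAT1, HT1 and SLAC1 did not pass the rule. This made 2 of 6 genes higher and 1 lower, where 18.6% of all 18165 genes tested were higher and 13.7% were lower. The median log2 difference was 0.76 over the 6 genes and 0.09 over all genes. HT1, OST1, MYB60 and KAT1, 4 of the 6, had their highest value in stage E, the stage that held the highest value of 25.9% of the 15603 genes that reached 5 RPM. The same 4 genes were highest in stage E with stage C left out, against 31.2% of all genes. After median-of-ratios scaling between libraries 3 of the 6 were, since MYB60 was then higher in stage C than in E.

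**Figure D1:**
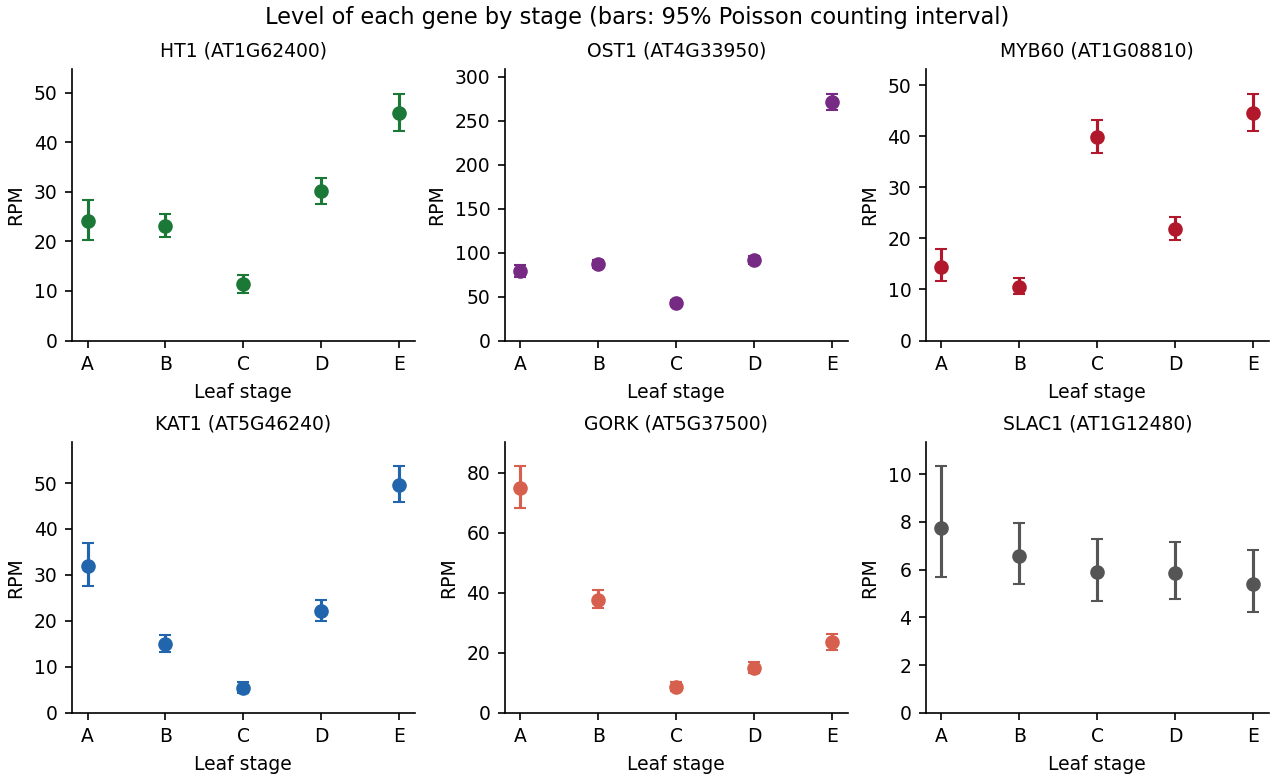
RPM of each gene in stages A to E, 1 panel per gene with its own linear axis from 0; points are the single value of each stage and bars the exact 95% Poisson interval of its reads. HT1, OST1, KAT1 and, before scaling between libraries, MYB60 were highest in stage E, GORK in stage A at 74.9 RPM, and SLAC1 stayed between 5.41 and 7.74 RPM.

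OST1, the kinase that carries the abscisic acid signal to the channels, stood apart in the mature leaf. It had 78.8 RPM (71.8 to 86.3) in stage A, 87.1 (82.7 to 91.7) in B, 43.0 (39.7 to 46.6) in C, 91.1 (86.5 to 95.8) in D and 271 (262 to 281) in E. In RPM, stages A, B and D thus lay close to each other, stage C below them and stage E above. Stage D over B was 1.05-fold (0.972 to 1.13) and stage B over A was 1.11-fold (0.995 to 1.23), so neither neighbouring pair differed beyond counting error. The closeness of D and B depended on scaling: their log2 difference was 0.06 as measured and 0.48 after median-of-ratios scaling between libraries. Relative to the median of loci of the same Arabidopsis chromosome it was 0.28. Stage E exceeded stage D by 2.98-fold (2.8 to 3.17), a log2 difference of 1.56, and stage A by 3.44-fold (3.13 to 3.8). Set among all genes, the first of these differences ranked above 95.9% of them and the second above 90.6%. OST1 rested on 468 to 3513 reads per stage, the most of the 6 genes.

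HT1, the kinase of the carbon dioxide response, followed a flatter course of the same shape. Its levels were 24.1 RPM (20.3 to 28.4) in stage A, 23.1 (20.9 to 25.6) in B, 11.3 (9.66 to 13.2) in C, 30.1 (27.5 to 32.8) in D and 45.9 (42.3 to 49.7) in E. Stage E was the highest and stage C the lowest, and stages A and B did not differ beyond counting error, with a ratio of A to B of 1.04 (0.853 to 1.26). Stage E stood 1.53-fold above stage D (1.35 to 1.72) and 1.91-fold above stage A (1.59 to 2.3), and neither difference passed the rule. The lowest point in stage C passed it on one side: HT1 was 2.65-fold higher in stage D than in stage C (2.22 to 3.19), and 2.04-fold lower in stage C than in stage B (1.69 to 2.47), a log2 difference of -0.97.

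The 2 kinases had the most similar profiles of the 15 pairs among the 6 genes. The root mean square distance between their log2 profiles, each centred on its mean over the 5 stages, was 0.34, and that of the most distant pair, MYB60 and GORK, was 1.65. The ratio of OST1 to HT1 reads does not depend on how libraries are scaled. Taken relative to stage A it was 1.15 (0.917 to 1.44) in stage B, 1.16 (0.891 to 1.51) in C, 0.926 (0.742 to 1.15) in D and 1.81 (1.46 to 2.23) in E. The ratio therefore departed from its stage A value beyond counting error in stage E alone of the 4 later stages. In stage C the ratio also carries the uneven read shares of the chromosomes described below, and so does the distance of 0.34. Relative to the median of its own chromosome, OST1 stood at -0.51 and HT1 at -1.20 in stage C against B.

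KAT1, the inward potassium channel, was high at both ends of the series. It had 32.0 RPM (27.6 to 36.9) in stage A, 15 (13.2 to 17.0) in B, 5.46 (4.32 to 6.81) in C, 22.1 (19.9 to 24.5) in D and 49.7 (45.9 to 53.7) in E. Each stage was separated from its neighbour in rank (E, A, D, B, C) beyond counting error, and the highest exceeded the lowest 9.10-fold (7.18 to 11.7), beside 8.56-fold (7.01 to 10.5) for GORK, whose interval overlapped it. KAT1 fell 2.13-fold (1.75 to 2.58) in stage B against stage A and 2.75-fold (2.13 to 3.6) in stage C against B. The fall in stage B was close to the threshold, at a log2 difference of -1.04, and was lost with a pseudocount of 5 RPM or when the whole counting interval had to pass. KAT1 then rose 4.05-fold (3.16 to 5.24) in stage D against C and 2.25-fold (1.97 to 2.56) in stage E against D. After median-of-ratios scaling between libraries the fall in stage C and the rise in stage E did not pass, at -0.997 and 0.78. Over the whole series these steps nearly cancelled: stage E was 1.55-fold above stage A (1.32 to 1.84), which did not pass the rule.

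GORK, the outward potassium channel, was highest in the youngest leaf and stayed well below that level afterwards. Its levels were 74.9 RPM (68.1 to 82.2) in stage A, 37.7 (34.8 to 40.8) in B, 8.75 (7.28 to 10.4) in C, 15.1 (13.3 to 17.1) in D and 23.5 (20.9 to 26.3) in E. No neighbours in this order (A, B, E, D, C) overlapped within counting error. GORK was 1.98-fold lower in stage B than in stage A (1.75 to 2.24), at a log2 difference of -0.97 just short of the rule, and fell 4.31-fold (3.56 to 5.27) in stage C against B. It fell 2.5-fold (2.16 to 2.91) in stage D against B and 3.19-fold (2.75 to 3.7) in stage E against A. Only 7.46% of all genes had a lower stage E to stage A difference than GORK.

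Reads of the inward channel KAT1 gained on those of the outward channel GORK between the youngest and the mature leaf. Reads of KAT1 per read of GORK were 0.427 (0.358 to 0.507) in stage A, 0.398 (0.343 to 0.462) in B, 0.624 (0.464 to 0.835) in C, 1.47 (1.24 to 1.73) in D and 2.12 (1.84 to 2.43) in E. Their sizes also depend on the lengths of both genes, but the change from stage to stage does not, nor does it depend on library scaling. In stage E the ratio was 4.95 times that of stage A (exact 95% interval 3.96 to 6.20). The related pair KAT2, a second inward channel of guard cells, and SKOR, an outward channel that loads potassium into xylem, moved the same way. Reads of KAT2 per read of SKOR in stage E were 14.7 times those in stage A (10.9 to 19.98). Both ratios were built on genes seen to differ in these data, so they describe the libraries and test nothing.

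**Figure D2:**
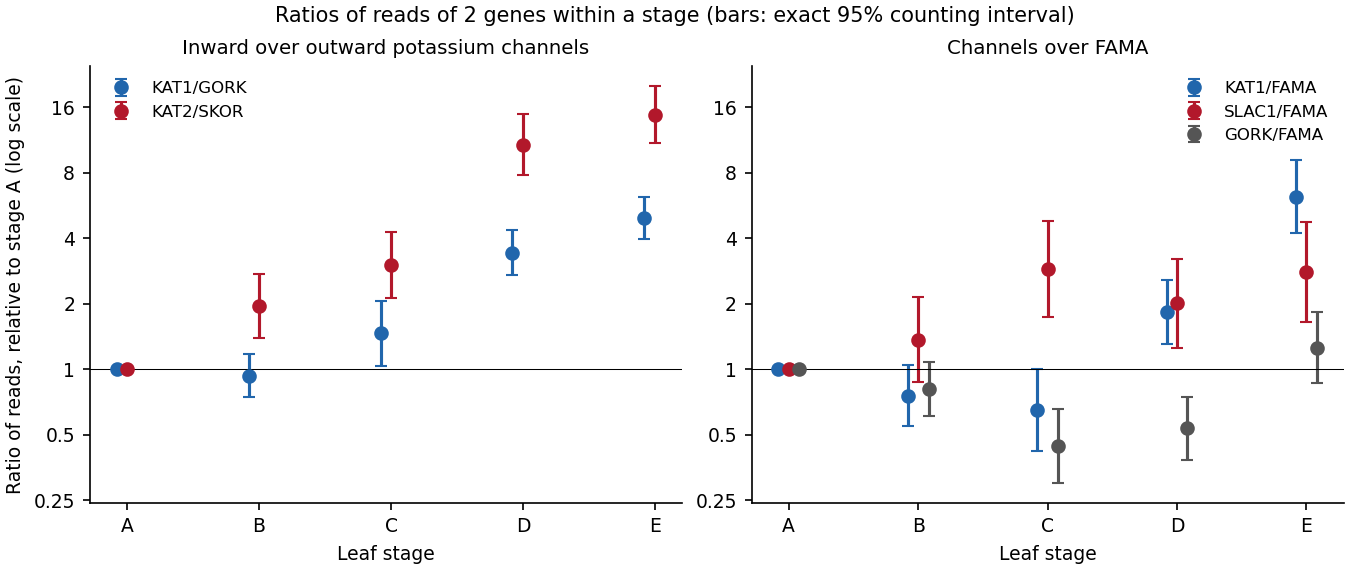
Ratios of reads of 2 genes within each stage, divided by the same ratio in stage A, on a log scale, with exact 95% counting intervals. KAT1/GORK stood at 3.43 in stage D and 4.95 in stage E, KAT2/SKOR at 10.8 and 14.7, and of the channels set against FAMA, KAT1 had the highest value in stage E, 6.20.

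SLAC1, the anion channel that OST1 acts on, covered the narrowest range. It had 7.74 RPM (5.67 to 10.3) in stage A, 6.58 (5.41 to 7.94) in B, 5.88 (4.69 to 7.28) in C, 5.87 (4.75 to 7.16) in D and 5.41 (4.22 to 6.83) in E. All 5 intervals overlapped, and the highest stage exceeded the lowest 1.43-fold (0.965 to 2.11). SLAC1 passed the rule in 0 of 6 comparisons. It was also the least deeply read of the 6 genes, with 46 to 109 reads per stage, so differences well under 2-fold were not detectable at this depth.

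MYB60 was the only one of the 6 with a high value in stage C. Its levels were 14.5 RPM (11.6 to 17.9) in stage A, 10.6 (9.06 to 12.3) in B, 39.8 (36.6 to 43.2) in C, 21.8 (19.6 to 24.2) in D and 44.5 (40.9 to 48.3) in E. Stages E and C were alike within counting error, at a ratio of 1.12 (0.993 to 1.26), and the stages ranked E, C, D, A, B. MYB60 rose 3.77-fold (3.18 to 4.49) in stage C against B and 3.07-fold (2.45 to 3.9) in stage E against A. Stage D was 2.06-fold above stage B (1.72 to 2.49) and stage E 2.04-fold above stage D (1.78 to 2.33). Both fell just short of the rule, at log2 differences of 0.98 and 0.996.

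Stage C, the leaf with stomata, needs a separate account because its reads are shared unequally among loci. In stage C, 40.4% of reads belonged to loci matched to Arabidopsis chromosome 1, against 25.3% in stage B, and 15.1% to loci of chromosome 5, against 24.6% in stage B. The median log2 difference of stage C against B fell step by step with the chromosome number: 0.23 for chromosome 1, -0.02 for 2, -0.32 for 3, -0.49 for 4 and -0.69 for 5. In the same comparison 1 of the 6 genes rose, where 15.3% of all genes did, and 2 fell, where 23.0% of all genes did. HT1, SLAC1 and MYB60 are loci of chromosome 1, OST1 of chromosome 4, and GORK and KAT1 of chromosome 5.

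Set against the loci of their own chromosome, the 6 genes kept their directions in stage C but not all their sizes. MYB60 lay 1.59 above the chromosome 1 median and above 83.6% of the loci there. HT1 stood at -1.2 relative to it, lower than all but 15.1% of loci, so the low point of HT1 ran against the rise of its chromosome. GORK stood at -1.30 relative to chromosome 5, KAT1 at -0.62 and OST1 at -0.51 relative to chromosome 4. As measured, these 3 differences were -1.99, -1.31 and -1.0, the last just short of the rule before rounding. HT1, OST1, GORK and KAT1, 4 of the 6, had their lowest value in stage C, as did 32.5% of all genes that reached 5 RPM. The part of the read shares in these values was not tested.

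**Figure D3:**
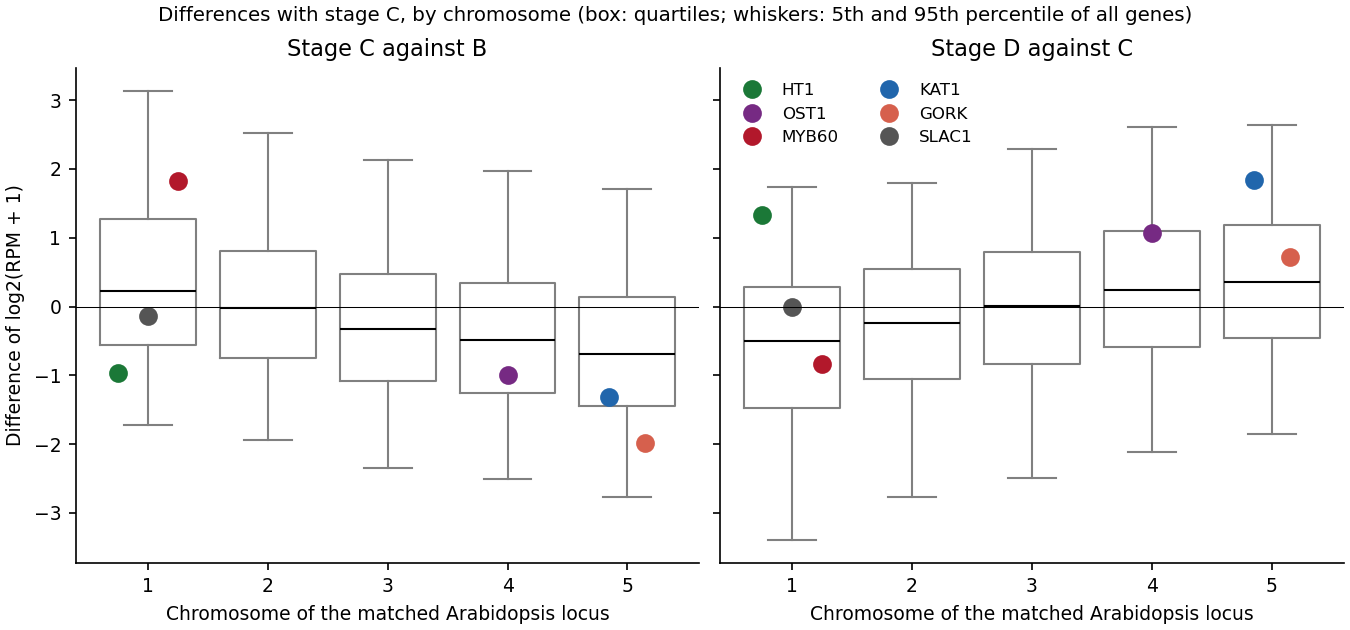
Difference of log2(RPM + 1) for stage C against B (left) and stage D against C (right), by chromosome of the matched Arabidopsis locus; boxes are quartiles and whiskers the 5th and 95th percentiles of all genes tested, and coloured points the 6 genes. HT1 lay at -0.97 where its chromosome had a median of 0.23, and MYB60 at 1.82.

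In stage D against stage C the pattern turned round. KAT1, HT1 and OST1 rose, at log2 differences of 1.84, 1.33 and 1.06, where 17.4% of all genes were higher, and 0 of the 6 fell, where 19.5% of all genes were lower. The medians ran from -0.50 for chromosome 1 to 0.36 for chromosome 5. HT1 ranked above 92.0% of chromosome 1 loci, KAT1 above 87.4% of those of chromosome 5 and OST1 above 74.4% of those of chromosome 4. Relative to its chromosome the difference of OST1 was 0.82, under the threshold.

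Comparisons without stage C were less spread over chromosomes: in stage E against A the medians of chromosomes 1 to 5 lay between 0.06 for chromosome 5 and 0.16 for chromosome 4. In stage B against A, the step at which salt glands appeared, KAT1 fell and 0 of the 6 rose. In that step 3.1% of all genes fell and 7.47% rose, and the median of the 6 genes was -0.31 against 0.10 for all genes. In stage E against D, OST1 and KAT1 rose and 0 fell, where 13.1% of all genes rose and 6.65% fell. In stage D against B, GORK fell and 0 rose, where 19.5% of all genes fell and 10.5% rose. The fall of GORK in stage D did not pass after scaling by the median of ratios between libraries, which gave a log2 difference of -0.86 in place of -1.27.

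**Figure D4:**
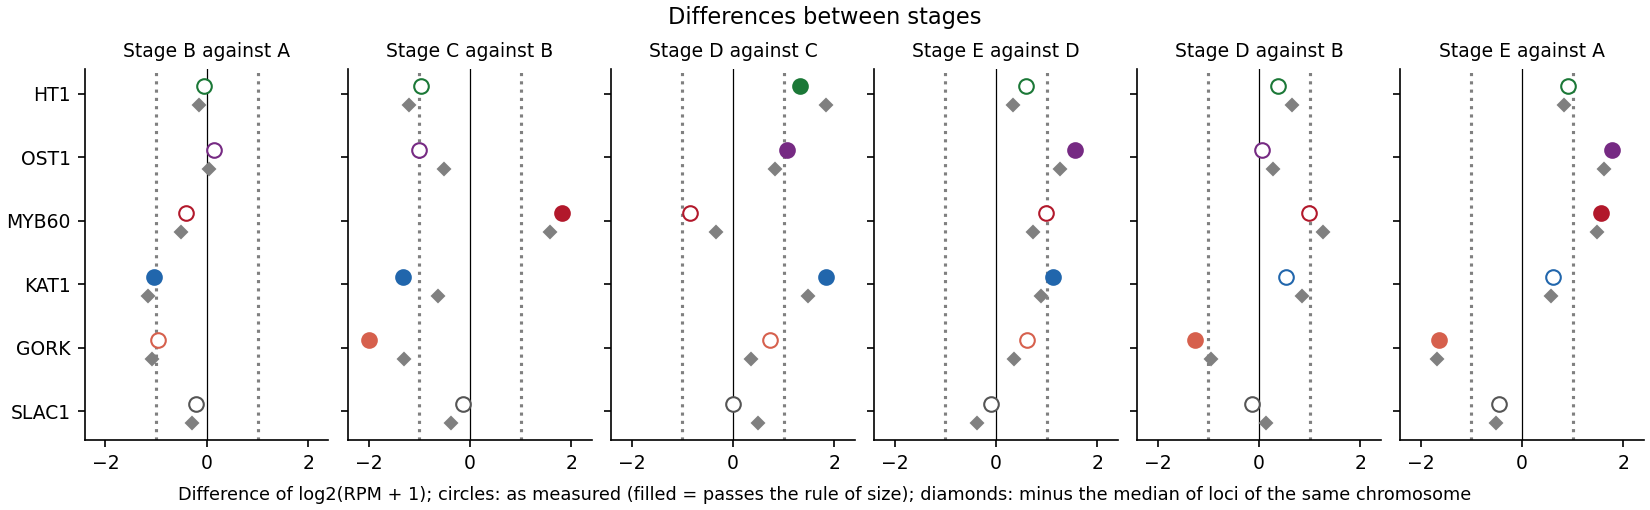
Difference of log2(RPM + 1) of each gene in 6 comparisons of a later with an earlier stage; circles are the measured values, filled where they pass the rule of size (dotted lines at -1 and 1), and grey diamonds the same values minus the median of loci of the same chromosome. OST1 and MYB60 pass in stage E against A on the higher side, at 1.77 and 1.56, and GORK on the lower side, at -1.63.

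All libraries were made from whole leaves, so the number of guard cells, the RNA per guard cell and reads from other leaf cells cannot be told apart. Genes that specify guard cells had lower sums in later stages, while HT1, OST1 and KAT1 were highest in stage E. All 7 identity genes (SPCH, MUTE, FAMA, SCRM, SCRM2, FLP and MYB88) had a row and reads in every stage, and summed to 147 RPM in stage A, 140 in B, 97.6 in C, 54.0 in D and 53.2 in E. None of these 7 rose in stage E against A and 3 fell, their median being -0.76, where 18.6% of all genes rose and 13.7% fell. The 7 did not share 1 course, and SCRM2 alone held 65.2 of the 147 RPM of stage A. SPCH and SCRM were highest in stage B, at 26.7 and 19.6 RPM. MUTE and FLP were highest in stage C, at 3.15 and 19.7 RPM. FAMA, the factor of the last step of guard cell formation, had 16.7 RPM in stage A, 10.4 in B, 4.41 in C, 6.29 in D and 4.17 in E. Set against FAMA reads, KAT1 in stage E was 6.20 times its stage A value (4.22 to 9.15). SLAC1 was 2.79 times (1.65 to 4.74) and GORK 1.25 times (0.860 to 1.84). These ratios also carry the fall of FAMA itself, from 16.7 to 4.17 RPM. In RPM, KAT1 was higher in stage E than in A, at 49.7 against 32.0, and GORK lower, at 23.5 against 74.9. SLAC1 did not differ beyond counting error, at 5.41 against 7.74 RPM. Whether FAMA reads follow the number of guard cells was not tested, so the ratios are not levels per guard cell.

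Other cell types changed their share of the RNA across the same stages. The 5 mesophyll markers summed to 608 RPM in stage A, 2085 in B, 18693 in C, 35852 in D and 8697 in E. RCA, the activase of Rubisco, carried most of the stage E sum, with 7656 RPM against 326 in stage A. LHCB1.1 and LHCB2.1, light-harvesting proteins, ran the other way between these stages, with 45.6 and 78.6 RPM in stage E against 86.7 and 116 RPM in stage A. Epidermis markers summed to 709 RPM in stage A, 351 in B, 158 in C, 327 in D and 343 in E, and of these 5 only LTP1 had 0 reads, in stages B, C and D. CER1 held 447 RPM of the stage A sum and had 65.8 RPM in stage E. FDH was instead highest in stage E, at 213 RPM against 154 in stage A. The 4 markers of dividing cells summed to 17.5 RPM in stage E, against 1515 RPM in stage A. The 3 phloem markers summed to 164 RPM in stage E against 15.3 in stage A. SUC2 held 147 RPM of that stage E sum, while AKT2 went the other way, with 0.850 RPM in stage E against 2.02 in stage A. The 4 xylem markers summed to 108 RPM in stage A, 169 in B, 448 in C, 404 in D and 173 in E. Stage C was the low point of the epidermis sum, as it was of HT1, OST1, KAT1 and GORK. The part of these changes in the values of the 6 genes was not tested.

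The relatives of each gene show how far its course was shared. Their counts in stage E against A stand beside 18.6% of all genes higher, 13.7% lower and a median of 0.09. SnRK2 kinases are the family of OST1, and most of them were higher in the mature leaf. Of 10 measured members, OST1 included, 6 rose in stage E against A and 0 fell, their median difference was 1.23, and 8 of 10 were highest in stage E. SNRK2.2 and SNRK2.3, the closest kin of OST1 in abscisic acid signalling, rose 3.25-fold (2.82 to 3.77) and 2.27-fold (2.04 to 2.54). SNRK2.7 rose most of the family, 10.1-fold (9.06 to 11.3), to 578.5 RPM in stage E against 57.2 RPM in stage A. SNRK2.3 lacked the shape of OST1 before that: it had 66.0 RPM in stage A, 50.2 in B, 38.4 in C, 27.4 in D and 150 in E. Reads of such similar kinases may have been split between loci, so single members are uncertain.

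Upstream of OST1, most abscisic acid receptors rose. All 14 PYR/PYL receptors had a row, and in stage E against A 8 of them rose and 1 fell, with a median of 1.59. PYL11 and PYL13, with 0 reads in stage A, lie below that median. PYL4 rose 5.53-fold (4.97 to 6.17), to 342 RPM in stage E against 61.8 RPM in stage A, and PYL12 9.12-fold (6.5 to 13.2). PYR1 was the one that fell, to 41.6 RPM in stage E against 102 RPM in stage A. Of 8 measured clade A phosphatases 1 rose (HAB2) and 0 fell, with a median of 0.11, a count of rises near the 18.6% of all genes. ABI1, the best known of them, had 9.26 RPM in stage A, 5.92 in B, 2.38 in C, 6.54 in D and 12.9 in E, the same low point in stage C and high point in stage E as OST1. ABI1 and OST1 are both loci of chromosome 4, where the median of stage C against B was -0.49. The part of the read shares in the common low point was not tested. The receptor values in stage C were far from their neighbours: PYL1, a chromosome 5 locus, had 9.31 RPM in stage C against 179 in B, and PYL3, a chromosome 1 locus, 47.5 RPM in stage C against 2.36 in B.

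Most genes of light and carbon dioxide signalling, the pathway of HT1, were higher in the mature leaf. Of 10 measured genes, HT1 included, 6 rose and 1 fell in stage E against A, and the median difference was 1.41, where 18.6% of all genes rose and 13.7% fell. CBC2, a related kinase that works with HT1 in stomatal opening, shared its shape in RPM, with 78.0 RPM in stage A, 79.8 in B, 29.1 in C, 142 in D and 199 in E. CBC2 is a locus of chromosome 5, where the median of stage C against B was -0.69. HT1 is one of chromosome 1, where it was 0.23. The part of the read shares in this likeness was not tested. MPK4, a kinase that restrains HT1 in carbon dioxide signalling, rose 2.82-fold (2.60 to 3.06) in stage E against A, and its partner MPK12 had 59.3 RPM in stage E and 58.8 RPM in stage A. The carbonic anhydrases CA1 and CA4 rose most, 46.55-fold (37.25 to 58.95) and 50.0-fold (31.6 to 84.6). CA1 is also on the mesophyll list, so these values do not stand for guard cells alone. GHR1, a receptor-like protein needed for activation of SLAC1, was the one that fell, to 40.8 RPM in stage E against 254 RPM in stage A.

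Among Shaker potassium channels, the family of KAT1 and GORK, 1 of 8 measured genes (these 2 included) rose in stage E against A and 2 fell, and the median log2 difference was 0.20. Of all genes 18.6% rose and 13.7% fell, so among 8 genes these counts do not set the family apart. KAT2 rose 2.72-fold (2.08 to 3.6). Both outward channels fell: SKOR had 160 RPM in stage A, 51.3 in B, 32.9 in C, 17.9 in D and 29.6 in E. SKOR parted from GORK in its low point, which came in stage D and not in stage C. The inward channels AKT1 and AKT5 did not pass the rule in that comparison, and AKT2, the phloem channel, stayed between 0.846 and 2.1 RPM.

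SLAC1 had few measured relatives at any level. SLAH2 and SLAH3 stayed at or under 2.69 RPM in every stage. Of the 7 measured anion channels, SLAC1 included, 0 rose and 1 fell in stage E against A, near the 13.7% of all genes that fell, and the median difference was -0.34. Of all genes, 18.6% rose. ALMT12, the rapid anion channel of guard cells, had 51.4 RPM in stage A, 36.4 in B, 15.3 in C, 29.6 in D and 52.5 in E, and like SLAC1 did not differ between stages E and A beyond counting error, at 1.02-fold (0.891 to 1.17). ALMT6, a vacuolar malate channel of guard cells, fell to 12.6 RPM in stage E against 26.6 RPM in stage A.

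MYB60 belongs to a subgroup of MYB factors with MYB30, MYB31, MYB94 and MYB96, several of which act in the cuticle or in defence. Between the ends of the series (stage E against A), 4 of 7 listed MYB factors, MYB60 included, rose and 0 fell, and their median was 1.05, where 18.6% of all genes rose and 13.7% fell. MYB94, an activator of wax synthesis, came nearest to MYB60 in shape, with 4.55 RPM in stage A, 3.08 in B, 13.9 in C, 10.1 in D and 15.8 in E. MYB94 is a locus of chromosome 3, where the median of stage C against B was -0.32. MYB61, a factor that limits stomatal opening and a locus of chromosome 1, peaked in stage C alone at 73.4 RPM, against 10.3 RPM in stage B, with 15.3 RPM in stage E against 14.0 in stage A.

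**Figure D5:**
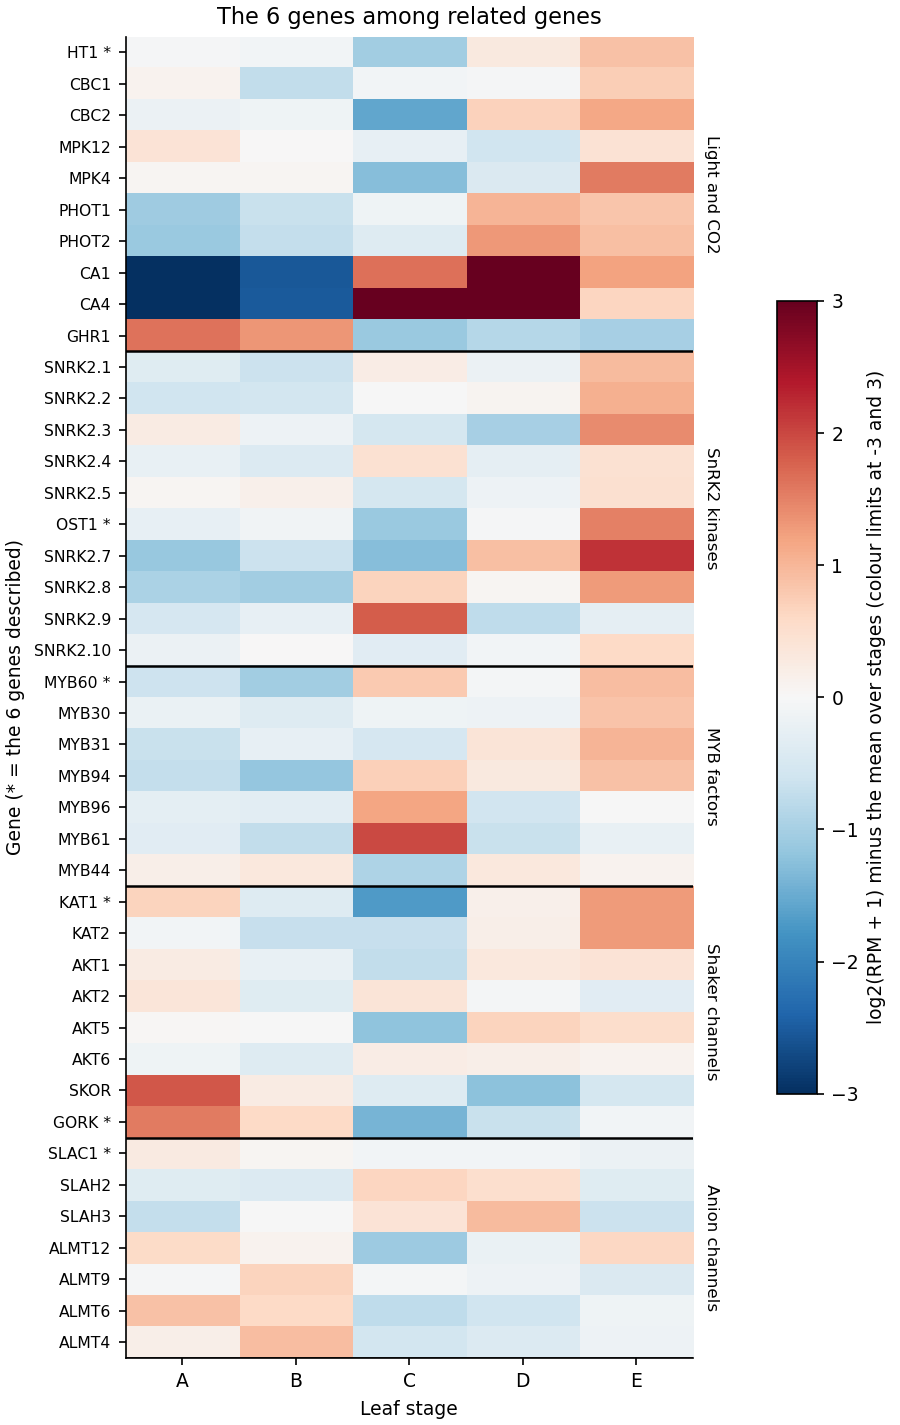
Each row is a gene of the 5 families and each column a stage; colour is log2(RPM + 1) minus the mean of the gene over the 5 stages (red above, blue below). OST1, most other SnRK2 kinases, KAT1 and KAT2 are reddest in stage E, GORK and SKOR in stage A, and HT1, OST1, KAT1 and GORK are bluest in stage C.

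Together the lists on guard cell signalling and transport held 74 measured genes beside the 6. In stage E against A, 39.2% of these rose and 5.41% fell, with a median of 0.49, against 18.6%, 13.7% and 0.09 for all genes. In stage C against B, 19 of the 74 rose (25.7%, against 15.3% of all genes) and 18 fell (24.3%, against 23.0%). Of the 15 on chromosome 1, 7 rose and 2 fell, and of the 18 on chromosome 5, 3 rose and 6 fell. In stage E against D, 19 rose (25.7%, against 13.1% of all genes) and 3 fell (4.05%, against 6.65%). Stage E held the highest value of 38 of the 74, and of 25.9% of all genes that reached 5 RPM.

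Outside these lists, the genes nearest to each of the 6 were found by the same distance between centred log2 profiles over the 5 stages, among 15602 other genes. Only genes whose description names a protein are given as nearest, so a gene without one may lie nearer. Counts of genes within a distance cover both kinds. Stage C is part of every profile, so distances and counts also carry the uneven read shares of the chromosomes, which were not removed. Nearest to OST1 was AT2G16750, a protein kinase with an adenine nucleotide alpha hydrolase-like domain, at 0.06, then AT3G17700, cyclic nucleotide-binding transporter 1, at 0.07. Nearest to HT1 were AT5G01600, a ferritin, and AT3G22420, the kinase WNK2, both at 0.07. KAT1 had only 15 genes within 0.25, the fewest of the 6, and the nearest with a name was AT3G61890, homeobox 12, a homeodomain factor of water shortage and abscisic acid responses, at 0.19. It had 29.0 RPM in stage A, 11.3 in B, 4.27 in C, 17.2 in D and 54.2 in E.

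GORK had 60 genes within that distance, and the nearest with a name was AT2G23350, poly(A) binding protein 4, at 0.09. MYB60 had 25, the nearest with a name being AT3G04060, NAC domain containing protein 46, at 0.12, which itself stayed at or under 6.03 RPM. SLAC1 had 488, the nearest with a name being AT3G62580, described as a late embryogenesis abundant family protein, at 0.02. With 5 points per profile such closeness is common, and the number of near genes shows how ordinary a flat profile like that of SLAC1 is beside that of KAT1.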

How the data were processed

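The deposited table gives 1 value per gene and stage. Per the file headers the values are RPKM, but the deposited values behave as RPM: in each stage 100% of values are whole multiples (within 0.001 reads) of 1 step shared by all genes, which no division by gene length would leave. The step gave the reads behind each value and stage. A floor of 3 reads was 0.505 RPM in stage A and 0.181 to 0.232 RPM in the other stages. The labels call 2 lanes per stage biological replicates, which the columns do not separate. No source used here names the aligner, the assembly or how shared reads were handled.

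Differences were taken on log2(RPM + 1), over 18165 genes that reached 1 RPM in some stage. No count test was run, since 1 column per stage leaves no spread. Calls and intervals were tested on simulated data. Symbols were paired with loci by hand. The genes, lists, comparisons, rule of size and rule for naming genes (the 6, list genes, and the 3 named genes nearest each of the 6) were chosen with earlier results of these data known, so lists are described without tests. Alternatives were pseudocounts of 0.1 and 5, a minimum of 0 or 20 RPM, a 4-fold rule, median-of-ratios scaling over 14179 genes, a counting rule (whole interval at 2-fold or more) and differences relative to the chromosome median. Python 3.11.15, scipy 1.17.1 and pandas 2.3.3 were used. The values of 1 listed gene are not reported here.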

Additional observations from a re-analysis of the deposited data

How the results depend on the processing

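No paired analysis was possible because each stage is 1 column with no replicate number, and no replicate could be left out. Of 98 recounts of the calls over the 6 genes under another setting, 74 stayed within 1.5 times of the count given in the report and 24 did not, most of them by 1 gene. Counts of 0 that stayed at 0 are among the 74, and so are changes from 3 to 2. The 4-fold rule, a difference of 2 in log2(RPM + 1), left 0 genes in each comparison that had any. GORK in stage C against B and KAT1 in stage D against C missed it, at -1.99 and 1.84, though their RPM differed 4.31-fold and 4.05-fold. In stage B against A, the 1 gene that fell (KAT1) became 0 with a pseudocount of 5 RPM and under the counting rule, and 2, with GORK, after median-of-ratios scaling and relative to the chromosome median. In stage C against B, the 2 that fell became 4 with a pseudocount of 0.1 RPM, and 1 with a pseudocount of 5 RPM, with a minimum of 20 RPM and after scaling. Relative to the chromosome median there were again 2, GORK and HT1 in place of GORK and KAT1. In stage D against C, the 3 that rose became 2, without OST1, with a pseudocount of 5 RPM, under the counting rule and relative to the chromosome median. In stage E against D, the 2 that rose became 1 after scaling, under the counting rule and relative to the chromosome median. In stage D against B, 1 rose (MYB60, in place of 0) with a pseudocount of 0.1 RPM, after scaling and relative to the chromosome median, and 0 fell (in place of 1, GORK) after scaling and relative to the chromosome median. The count of genes highest in stage E, 4 of 6, was 3 after scaling, with MYB60 higher in stage C, and 4 without stage C, settings chosen after seeing the data. No called difference of a single gene changed sign under the other pseudocounts, scaling or the chromosome median; 107 of 144 such values moved by less than their counting interval. Depth limits SLAC1 most.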

Other observations

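Of 9 calcium-dependent and CBL-linked kinases and their sensors, which also act on SLAC1 and potassium channels, 0 rose and 0 fell in stage E against A, with a median log2 difference of -0.15, where 18.6% of all genes rose and 13.7% fell. CIPK23, which activates potassium uptake through AKT1, had 386 RPM in stage A, 281 in B, 150 in C, 306 in D and 468 in E. CPK11 and CPK23 peaked in stage C, at 275 and 45.6 RPM, against 86.2 and 7.07 RPM in stage B, and stood at 33.8 and 3.24 RPM in stage D.

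The plasma membrane proton pump AHA1, which drives stomatal opening, had 522 RPM in stage E and 175 RPM in stage A, a 2.99-fold rise (2.8 to 3.19). AHA5 rose 8.5-fold (7.35 to 9.87), and AHA2 was 1.27-fold (1.19 to 1.36) that of stage A, which did not pass the rule. The oxidase RBOHF, which makes reactive oxygen in abscisic acid signalling, rose 2.38-fold (2.07 to 2.76) in stage E against A, and its relative RBOHD stayed at or under 3.09 RPM.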
